A study of Saccharomyces cerevisiae with 3 samples.

Results

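The genes of cysteine and glutathione synthesis and breakdown in baker's yeast were followed on 3 two-colour arrays. They are 10 genes of 5539 named on the arrays, chosen by function: CYS3, CYS4, STR2 and STR3 of transsulfuration, GSH1 and GSH2 of glutathione synthesis, GLR1 of glutathione reduction, and DUG1, DUG2 and DUG3 of glutathione breakdown. The choice was made with earlier results of these data known. All 10 were found in the platform annotation by symbol, each with 2 spots, which makes 20 of 13056 spots.

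On each array the Cy3 channel carried total RNA of a strain labelled as a YAP1 mutant, a yap1 deletion by the title of the series, and the Cy5 channel total RNA of the wild type. Both strains had grown for 1 h with arsenite, As(III), at 0.2 mM, so the arrays compare the strains in stressed cells and hold no unexposed sample. No array had the dyes swapped. A difference between the dyes for a gene would therefore repeat on every array and cannot be told apart from one between the strains. The strain background and the way the deletion was made are not stated in the labels. The arrays are numbered as replicates 1 to 3, and nothing says whether they were made from independent cultures. The p-values then reflect only how these arrays vary, which can be technical variation. RNA of whole cultures cannot tell apart fewer cells with a transcript and less transcript per cell.

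Glutathione is a tripeptide of glutamate, cysteine and glycine that carries most of the free thiol of the cell. It reduces peroxides and protein disulfides through partner enzymes, and it binds arsenite, which the vacuolar pump Ycf1 can then move out of the cytosol as a conjugate. Its cysteine comes in yeast from homocysteine through cystathionine, the transsulfuration route, which also runs in the opposite sense through a separate pair of enzymes. Yap1 is a transcription factor of the oxidative stress response, and GSH1, GSH2 and GLR1 are among the genes described as its targets.

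The values are log ratios of the channels, each minus the median over genes of its array, and the mean of the 2 spots stands for a gene. The base of the logarithm and the sense of the ratio (mutant over wild type, as the titles name the strains, or Cy5 over Cy3) are not stated in the labels. YAP1 itself lay at −1.43, −0.22 and −0.74 on replicates 1, 2 and 3, below the median on every array but near it on replicate 2. Its 2 spots disagreed, with means over the arrays of −1.33 and −0.27, and on replicate 2 the second lay at 0.24. These values did not settle the sense of the ratio, and they do not show by themselves that the labelled mutant lacks the transcript. A gene is therefore said to lie on the high or the low side of the array median, no strain is said to hold more of a transcript, and no fold change is given. Before centring, the medians over genes were −2.11, −2.30 and −1.59, and between 96.9 and 98.9% of genes were below 0 on each array, so a side is a position among the genes of the array. Tests are limma's moderated test of the mean of 3 arrays against 0, two-sided, with Benjamini-Hochberg adjustment over all 5539 genes and a threshold of 0.05, and the number of arrays limits their precision.

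Of the 10 genes, 4 passed on the low side (DUG2, STR3, STR2 and DUG3), 1 passed on the high side (DUG1) and 5 did not pass (CYS3, CYS4, GSH1, GSH2 and GLR1). Over all genes the test called 28.5%, 12.5% low and 16.0% high. The low-side share of the 10 genes was thus 40% beside 12.5%, and their high-side share 10% beside 16.0%. Low calls over all genes were more frequent where the scatter between spots was large (below). Their median was −0.28 against −0.02 over all genes, and their means ran from −1.59 (DUG2) to 0.68 (DUG1). Of the 10 genes, 6 kept to the same side on every array (60%, against 58.9% of all genes). The breakdown genes held both ends of this range, the synthesis genes GSH1 and GSH2 stayed short of the threshold, and in transsulfuration the STR genes passed while the CYS genes did not.

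**Figure D1:**
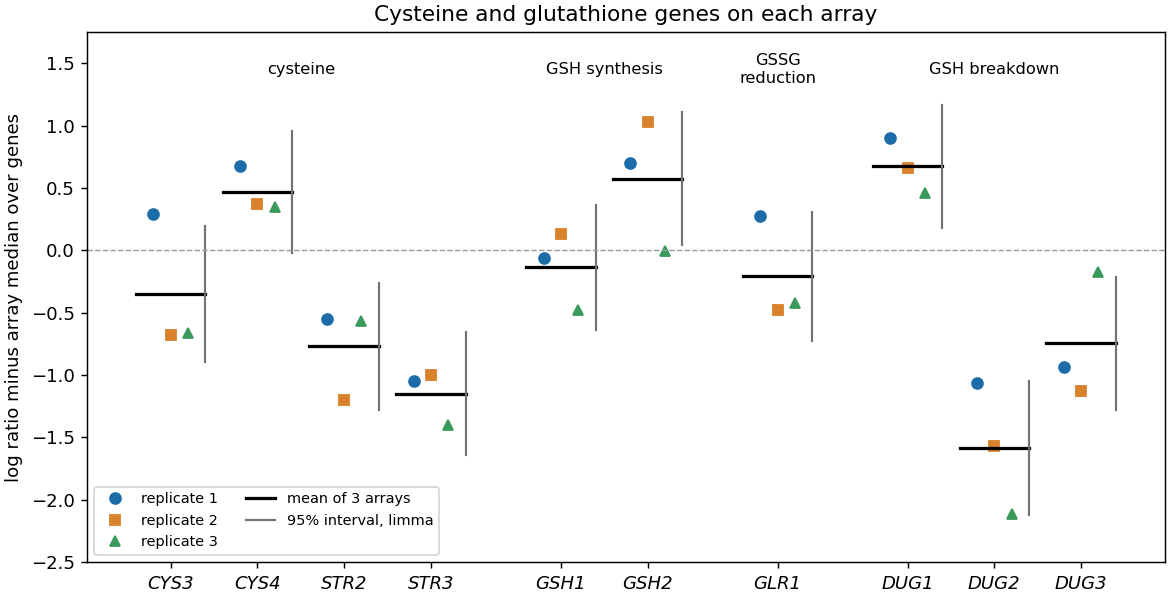
Log ratio minus the array median over genes (vertical axis, deposited log scale) for the 10 genes, ordered by role; symbols are the 3 arrays, black bars the mean and grey lines limma's 95% interval. DUG2 (mean −1.59) and STR3 (−1.15) lie below the median on every array, DUG1 (0.68) and CYS4 (0.47) lie above it on every array, and GSH1 and GLR1 lie on both sides.

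Glutathione breakdown held the gene farthest from the median. Dug2 and Dug3 form the complex that removes the glutamate of glutathione, and Dug1 is the peptidase that then splits cysteinylglycine. DUG2 (YBR281C) lay at −1.07, −1.57 and −2.12 on replicates 1, 2 and 3, on the low side of all arrays. On these arrays 6.97, 1.95 and 0.271% of the genes lay at or below it, and the mean was the 12th lowest of 5539. The mean was −1.59 ± 0.53 (SD, n = 3), with an adjusted p of 0.000335 and a limma 95% interval from −2.12 to −1.05. Its 2 spots had means over the arrays of −1.52 and −1.65, and each stood below −1 on all 3 arrays. Without replicate 3 the mean was −1.32 and the adjusted p 0.0593. Without replicate 1 or replicate 2 the gene remained past the threshold, at −1.84 and −1.59. Low calls over all genes fell from 695 to 617, 351 and 48 without replicates 1, 2 and 3. The same fits are used for the other low-side genes below.

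DUG3 (YNL191W), for the partner subunit, lay at −0.94, −1.13 and −0.18. It was on the low side of all arrays but close to the median on replicate 3, where its spots lay at 0.23 and −0.59. The mean was −0.75 ± 0.50 (SD, n = 3), with a limma adjusted p of 0.0364. It no longer passed without replicate 1 (adjusted p = 0.0894), without replicate 2 (0.266) or without replicate 3 (0.0758). DUG2 stood below DUG3 on every array, with differences of −0.13, −0.44 and −1.94, so replicate 3 held the widest gap between the genes of the complex.

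DUG1 (YFR044C), for the dipeptidase, lay on the other side of the median at 0.90, 0.66 and 0.46. All 6 of its spot values were above 0, and its mean was 0.68 ± 0.22 (SD, n = 3) with a limma adjusted p of 0.0403. It no longer passed when any array was left out: the adjusted p was 0.150 without replicate 1, 0.152 without replicate 2 and 0.123 without replicate 3. Its means in these fits were 0.56, 0.68 and 0.78. High calls over all genes also fell, from 886 to 826, 538 and 275 in the same order. DUG1 stood above DUG2 by 1.97, 2.23 and 2.58 on the 3 arrays. This distance, 2.26 ± 0.31 (SD, n = 3), was the widest of the 8 gene pairs set side by side. It is given as a value with no test, as are the other distances between genes. A distance between genes does not depend on where the zero of a whole array is set.

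In transsulfuration STR3 and STR2 passed on the low side, and CYS3 and CYS4 did not pass; the difference between these pairs of genes was not tested. Str2, cystathionine gamma-synthase, and Str3, cystathionine beta-lyase, lead from cysteine back to homocysteine, while Cys4, cystathionine beta-synthase, and Cys3, cystathionine gamma-lyase, lead from homocysteine to cysteine. STR3 (YGL184C) lay at −1.05, −1.001 and −1.40 on replicates 1, 2 and 3, on the low side of all arrays. The mean was −1.15 ± 0.22 (SD, n = 3), with a limma adjusted p of 0.00212, and it was −1.02 with an adjusted p of 0.0753 without replicate 3. The spots of STR3 disagreed on replicate 2, where they lay at −0.10 and −1.90.

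STR2 (YJR130C) lay at −0.55, −1.20 and −0.56, also on the low side of all arrays. The mean was −0.77 ± 0.37 (SD, n = 3), with a limma adjusted p of 0.0261. Again the spots of replicate 2 parted, at −0.44 and −1.95. Without replicate 2 the mean was −0.56 (adjusted p = 0.265), and without replicate 3 the adjusted p was 0.123. The call was also lost when the 2 spots were fitted as repeats within each array in place of their mean (adjusted p = 0.0575).

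CYS4 (YGR155W), the entry enzyme of the route to cysteine, lay at 0.68, 0.37 and 0.35, above the median on all arrays. The mean was 0.47 ± 0.18 (SD, n = 3) and did not pass (limma adjusted p = 0.142), with an interval from −0.02 to 0.95. CYS3 (YAL012W), the gene of the step that releases cysteine, lay at 0.29 on replicate 1 and at −0.68 and −0.66 on replicates 2 and 3. Both spots of CYS3 were above the median on replicate 1 and below it on the other arrays, so the arrays disagreed and not the spots. Its mean was −0.35 ± 0.56 (SD, n = 3; limma adjusted p = 0.319), with an interval from −0.89 to 0.19. CYS3 stood below CYS4 on every array, with differences of −0.38, −1.05 and −1.01. CYS4 stood above STR2, which acts at the start of the opposite route, by 1.23, 1.57 and 0.91. CYS3 stood above STR3, its counterpart on cystathionine in that route, by 1.34, 0.32 and 0.74. The distance between CYS3 and STR3 was lost once the trend with scatter between spots was removed (below).

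The genes of glutathione synthesis did not pass. GSH1 (YJL101C), for gamma-glutamylcysteine synthetase, the rate-limiting enzyme, lay at −0.06, 0.13 and −0.48 on replicates 1, 2 and 3. These values fell on both sides of the median, and the mean of −0.14 ± 0.31 (SD, n = 3) had a limma adjusted p of 0.691 and an interval from −0.64 to 0.37. GSH2 (YOL049W), for glutathione synthetase, which adds the glycine, lay at 0.70, 1.03 and −0.003. It was high on replicates 1 and 2 and at the median on replicate 3, with a mean of 0.58 ± 0.53 (SD, n = 3). Its interval ran from 0.04 to 1.11, its unadjusted p was 0.0369, and it did not pass after adjustment (limma adjusted p = 0.0986). GSH1 stood below GSH2 on every array, with differences of −0.76, −0.90 and −0.48.

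GLR1 (YPL091W), for glutathione reductase, which returns the oxidised disulfide to glutathione with NADPH, lay at 0.27, −0.48 and −0.42. As for CYS3, replicate 1 was on the high side and the other arrays were on the low side. The mean was −0.21 ± 0.42 (SD, n = 3), with a limma adjusted p of 0.546 and an interval from −0.73 to 0.31. On replicate 3 its spots lay at −0.96 and 0.11, so neither the arrays nor the spots gave it a steady side.

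**Figure D2:**
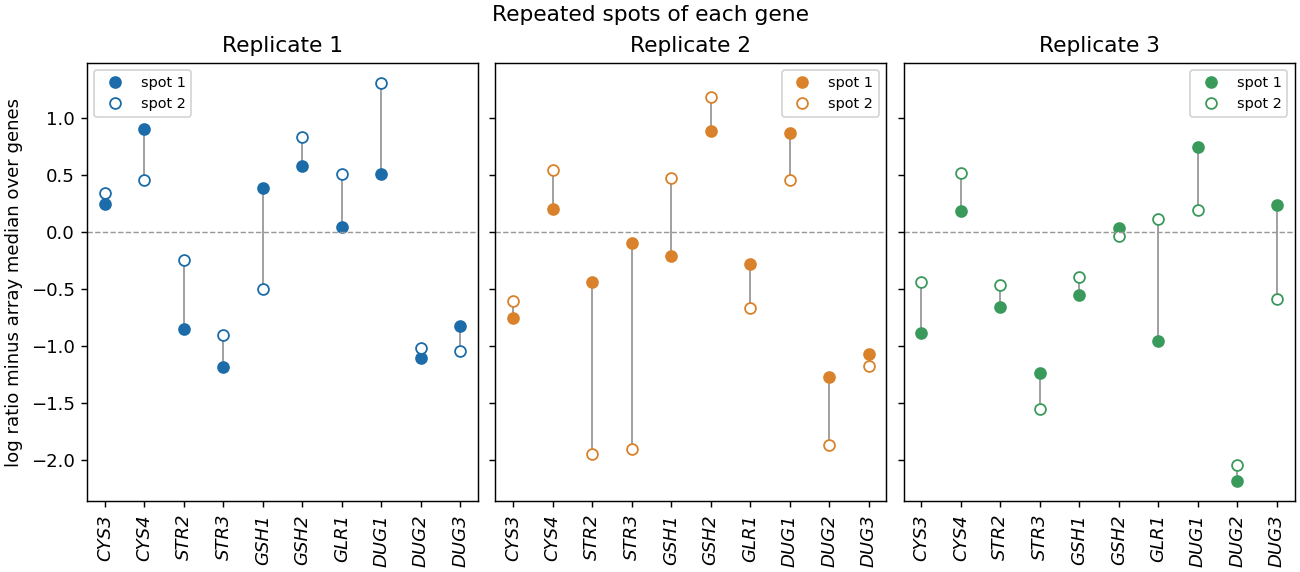
Log ratio minus the array median over genes for each of the 2 spots of every gene, with 1 panel an array; filled and open circles are the spots and grey lines join them. Both spots of DUG2 lie below −1 on all arrays, while those of STR2 (−0.44 and −1.95) and STR3 (−0.10 and −1.90) lie far apart on replicate 2.

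Ordered by their means from low to high, the genes were DUG2, STR3, STR2, DUG3, CYS3, GLR1, GSH1, CYS4, GSH2 and DUG1. Only at 2 of the 9 steps in this order did the upper gene stand above the lower one on all 3 arrays: from DUG2 to STR3 (0.44 ± 0.37, SD, n = 3) and from GSH1 to CYS4 (0.60 ± 0.32, SD, n = 3). At 6 of the other steps the mean gap was smaller than its SD over the arrays. At the remaining step, from CYS3 to GLR1, the gap was 0.14 ± 0.14 (SD, n = 3), with GLR1 above on 2 of 3 arrays. The Pearson coefficient across the 10 genes was 0.88 (replicates 1 and 2), 0.77 (replicates 1 and 3) and 0.76 (replicates 2 and 3), against 0.63, 0.62 and 0.74 across all genes. By rank, the Spearman coefficients of the 10 genes were 0.89, 0.79 and 0.77, though most neighbouring steps did not keep their order on every array. These coefficients describe agreement across genes, not across independent replicates, and the genes share the array and its dyes.

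Some spots without a gene symbol also lay low. Of 6 pairs of block positions with no symbol in any block, 4 were taken because their ratios were low, so their place on the low side is set by that choice. Their 192 spot pairs had a median of −1.05 and ran from −1.90 to 0.39. The 192 spots of the 2 pairs of positions not taken had a median of 0.11, and all 1918 spots without a symbol one of −0.58. Of the 192 spot pairs, 5.21% lay below DUG2, 38.5% below STR3, 77.1% below STR2 and 78.1% below DUG3. CYS3, GLR1 and GSH1, which did not pass, also lay within the range of the pairs, with 93.8, 96.4 and 97.4% of them below, whereas all lay below DUG1, GSH2 and CYS4. With the median of those spots as the zero of each array, DUG2 was at −0.61 with a limma adjusted p of 0.0528, and STR3 was at −0.18 with an adjusted p of 0.566. On that baseline 0 genes of the 10 were called low in limma (1 at an unadjusted p under 0.05) and 6 were called high. Of all 5539 genes, 11 were called low and 3973 high on the same baseline. Most genes were thus called high there, and these counts do not set the 10 genes apart. Channel intensities were not analysed here, so whether a low-side gene was dim is not known, and the part of dim spots in these results was not tested.

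**Figure D3:**
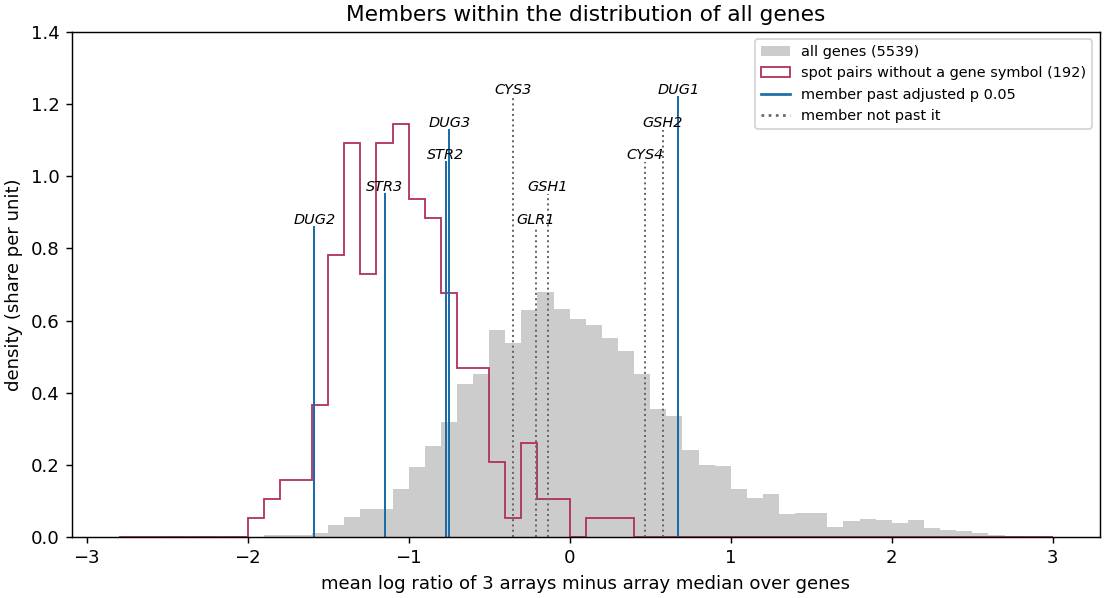
Distribution of the mean log ratio of 3 arrays minus the array median (horizontal axis) over all 5539 genes (grey) and over 192 spot pairs without a gene symbol (red outline), as density; vertical lines are the 10 genes, solid where past the threshold. DUG2, STR3, STR2, DUG3, CYS3, GLR1 and GSH1 fall within the range of these pairs, which were taken at positions with low ratios, and CYS4, GSH2 and DUG1 lie above it.

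The ratio also moved with the scatter between repeated spots, with a Spearman coefficient of −0.46 across all genes. Genes were split into 10 groups of equal size by scatter. STR2 and STR3 were in the group with the largest scatter (0.67 and 0.76, against a median of 0.32), whose median ratio was −0.52. Of the 554 genes in that group 200 were called low, against 24 of 553 in the group with the smallest scatter. DUG2, with a scatter of 0.25, was in a group whose median ratio was 0.15, and DUG1, at 0.43, in a group whose median was −0.22. After the median of each group was subtracted on each array, DUG2 lay at −1.74 (limma adjusted p = 0.00179) and DUG1 at 0.88 (adjusted p = 0.0205). STR3 then lay at −0.63 (adjusted p = 0.0810), STR2 at −0.25 (0.435) and DUG3 at −0.72 (0.0627), none of them past the threshold. In the same setting CYS3 lay at −0.63 (limma adjusted p = 0.105) and CYS4 at 0.31 (0.313). CYS3 was thus level with STR3, while CYS4 remained above STR2.

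The medians also differed between blocks. The table falls into 48 blocks of spots. Against the array median, the blocks that hold DUG3, STR2, GLR1 and CYS4 had medians of −0.30, −0.25, −0.24 and −0.23 as means of the 3 arrays, while those that hold DUG2 and DUG1 had medians of 0.35 and 0.22. A block's place on the slide and its gene content cannot be told apart here. Centred within blocks, DUG2 lay at −1.93 (limma adjusted p = 0.000188) and STR3 at −1.10 (adjusted p = 0.00376). In this setting CYS4 passed at 0.69 (adjusted p = 0.0322), and STR2 (0.0952), DUG3 (0.148) and DUG1 (0.131) did not. Of the 5 called genes, DUG2 alone passed with the scatter trend removed, with centring within blocks and with each spot on its own, though not without replicate 3 or with the zero at the spots without a symbol.

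**Figure D4:**
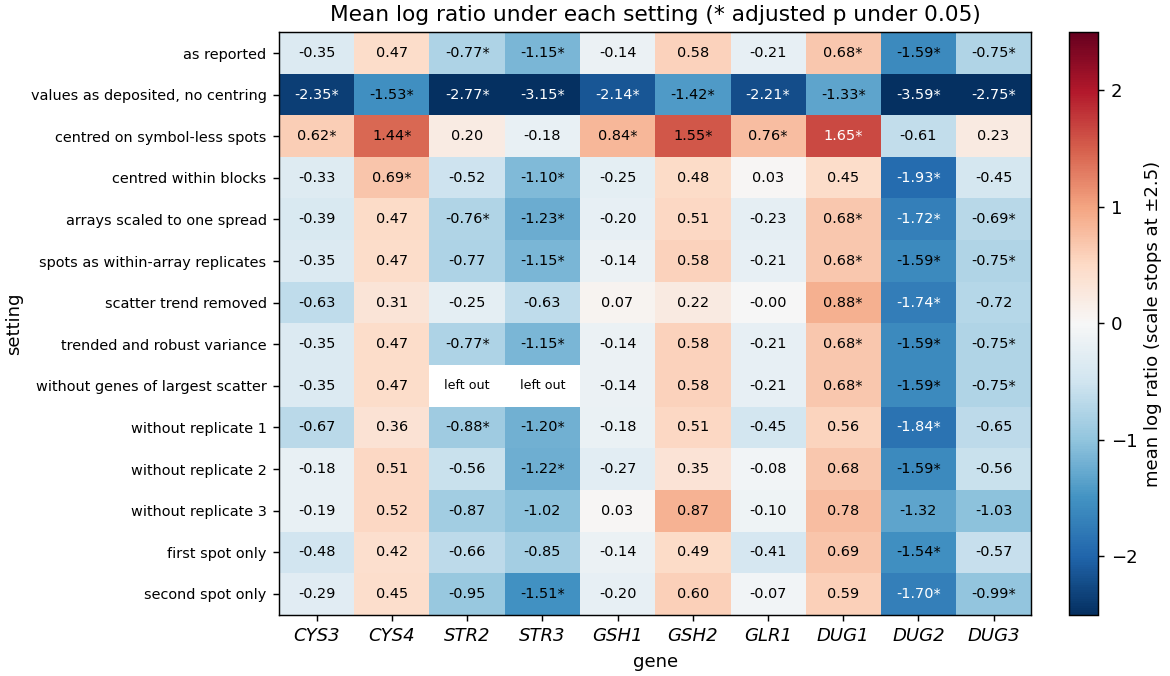
Mean log ratio of each gene (columns) under each way of processing (rows), with colour and printed value on the deposited log scale and a star where the limma adjusted p was under 0.05. DUG2 stays between −1.93 and −1.32 in the rows centred on genes, and the rows without centring and with centring on spots without a symbol shift all 10 genes to lower or higher values.

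The other genes of the pathway were counted in 4 lists, 45 genes in all, each of them on the arrays. These lists too were written with earlier results of these data known. In glutathione transport and other turnover, 1 of 11 genes passed low and 0 passed high in limma (4 low and 1 high at an unadjusted p under 0.05), with a list median of 0.03. The low-side share was 9.09% beside 12.5% over all genes, and no gene passed high where 16.0% of all genes did. At an unadjusted limma p under 0.05, 1069 of all 5539 genes were low and 1192 high in this fit. That unadjusted count over all genes was not made in the other fits. The member that passed was BPT1, a vacuolar pump of the same family as Ycf1, at −0.88 ± 0.34 (SD, n = 3; adjusted p = 0.0130). It did not pass without replicate 3, which left 0 of the list called in limma (2 low and 1 high at an unadjusted p under 0.05). Calls over all genes fell in that fit as well, from 695 to 48 low and from 886 to 275 high.

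In cysteine entry and use, 3 of 11 genes passed high and 2 passed low, with a median of 0.04. These shares were 27.3% high beside 16.0% over all genes and 18.2% low beside 12.5%. SAH1, for the hydrolase that makes homocysteine from S-adenosylhomocysteine, lay at 1.74 ± 0.51 and NFS1, for the mitochondrial cysteine desulfurase, at 0.90 ± 0.29 (SD, n = 3 each), with limma adjusted p of 0.000130 and 0.0108. MET17, for the enzyme that makes homocysteine from sulfide, lay at −1.27 ± 0.54 (SD, n = 3; adjusted p = 0.00198). SIS2, for a subunit of the decarboxylase of coenzyme A synthesis, lay at 0.77 ± 0.62 (SD, n = 3; adjusted p = 0.0376). MUP1, a methionine permease that also takes up cysteine, was the other low-side gene at −0.76, and is named to complete the count. Without replicate 3, SAH1 alone was called high and 0 genes low in limma (2 and 2 at an unadjusted p under 0.05). Over all genes, 275 were called high and 48 low in that fit. SIS2 was also lost without replicate 1 (adjusted p = 0.164), and NFS1 (0.0920) and MUP1 (0.0845) without replicate 2.

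Among glutathione users, 5 of 14 genes passed low and 0 passed high in limma (6 and 0 at an unadjusted p under 0.05), a low-side share of 35.7% beside 12.5% over all genes. Their median was −0.39. The transferase genes ECM4 and GTT2 lay at −1.34 ± 0.73 and −1.21 ± 0.44 (SD, n = 3 each), both with a limma adjusted p of 0.00222. GPX1, a glutathione peroxidase gene, lay at −1.01 ± 0.24 (adjusted p = 0.00504) and GTO3, for an omega-class transferase, at −0.80 ± 0.24 (adjusted p = 0.0186; SD, n = 3 each). GLO1, for glyoxalase I, completed the low-side count at −0.73. Without replicate 3, GTT2 alone of the 14 was called low, beside 48 of all 5539 genes. GTO3 was also lost without replicate 2 (adjusted p = 0.153) and GLO1 without replicate 1 (adjusted p = 0.0574).

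Among regulators, 2 of 9 genes passed high and 1, YAP1, passed low, with a median of 0.39. These shares, 22.2% high and 11.1% low, stood beside 16.0% and 12.5% over all genes. GCN4, for the activator of amino acid synthesis genes, lay at 1.13 ± 0.17, and MET32, for a DNA-binding partner of Met4, at 0.75 ± 0.51 (SD, n = 3 each), with limma adjusted p of 0.00222 and 0.0353. MET4, for the activator of sulfur genes, named after its values were seen, lay above the median on all arrays at 0.44, 0.48 and 0.27 but did not pass (adjusted p = 0.206). It did not stand out in its list. SKN7 (mean 0.66, limma adjusted p = 0.0511) and MET28 (0.42, 0.185) also lay above the median on every array without passing, with larger means than MET4 (0.39). YAP1, at a mean of −0.80, did not pass without replicate 1 or without replicate 3. Its call was also lost with the spots fitted as repeats within arrays (adjusted p = 0.0792), with the scatter trend removed (−0.28, adjusted p = 0.494) and on the second spot alone (−0.32, adjusted p = 0.452). Neither MET32 nor GCN4 passed without replicate 3 (adjusted p of 0.233 and 0.0575), a fit that called 275 of all genes high. MET32 was also lost without replicate 1 (adjusted p = 0.165). Of the 4 lists, the glutathione users alone had a median below that of the 10 genes.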

How the data were processed

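The deposited table holds log ratios, 1 for each spot of an array, which were read as log2. Their base and direction, and the authors' background correction and normalization, are not given in the sources used here. Spots were named through the platform annotation (11138 of 13056 with 1 symbol, none with several, 1918 without). Locus names come from the RefSeq gene table, assembly R64 (5534 of 5539 genes). Spots of a gene were averaged, and the median over genes of each array was subtracted. The mean was tested with limma 3.58.1 in R 4.3.3 (lmFit, eBayes, prior of 13.35 degrees of freedom, Benjamini-Hochberg over 5539 genes). The fit was also run on simulated data, but the outcome is not reported here and lends no support to the calls. The 10 genes, the lists and the 4 pairs of low positions without a symbol were chosen with earlier results of these data known. Named from each list were up to 4 called genes with the largest absolute mean, or 2 where none was called. Alternatives were the centring, scaling, averaging of spots, the scatter trend, the variance model, genes of large scatter and each array left out. Promoter and protein sequences were not used here.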

Additional observations from a re-analysis of the deposited data

How the results depend on the processing

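Scaling the arrays to one spread and a trended, robust variance changed no call of the 10 genes. Without centring, 0 of the 10 genes were called high in limma and 10 low (0 and 10 at an unadjusted p under 0.05), with CYS4 at −1.53, GSH2 at −1.42 and DUG1 at −1.33; over all genes the counts were 2 and 5258, and in the lists of turnover, cysteine use, glutathione users and regulators 11, 10, 14 and 9 genes were low and 0 high. Centred on spots without a symbol, 6 of the 10 were high and 0 low (6 and 1 at an unadjusted p under 0.05), with CYS3 at 0.62, STR2 at 0.20, GSH1 at 0.84, GLR1 at 0.76, DUG3 at 0.23 and YAP1 at 0.17; over all genes 3973 were high and 11 low, and in the 4 lists 7, 8, 6 and 8 were high and 0 low (0 low at an unadjusted p under 0.05 too). Both shifts follow from the choice of the zero. Centred within blocks, 2 of the 10 were low, beside 677 of all genes. GLR1 was then at 0.031, and 2 turnover genes and 3 glutathione users were low and 4 regulators high. With the scatter trend removed, 1 of the 10 and 463 of all genes were low, and GSH1 was at 0.071. Without the group of genes with the largest scatter, which leaves out STR2 and STR3, 2 of the remaining 8 were low, beside 521 of all genes in that fit. At an adjusted p of 0.01, a threshold added after the data were seen, 0 of the 10 were high and 2 low, and 542 and 260 of all genes.

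Leaving out 1 array at a time gave 0 high calls among the 10 genes in limma each time (0, 1 and 2 at an unadjusted p under 0.05 without replicates 1, 2 and 3) and 0 to 3 low calls, with 0 without replicate 3 (4 at an unadjusted p under 0.05). Over all genes it gave 275 to 826 high and 48 to 617 low calls, lowest without replicate 3. The low calls were 0 to 1 in turnover, 0 to 3 in cysteine use, 1 to 4 in glutathione users and 0 to 1 in regulators, and the high calls 1 to 2 in cysteine use and 0 to 2 in regulators. GSH1 ran from −0.27 (without replicate 2) to 0.035 (without replicate 3). The cause was not tested. No paired analysis was possible because each array already holds both strains and there is 1 group of arrays. Without intensities, signal over background could not be set beside any value.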
